A study of Homo sapiens with 2 samples.

Results

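The genes of the inflammatory cytokines tumor necrosis factor (TNF), lymphotoxin alpha (LTA), lymphotoxin beta (LTB), interleukin 6 (IL6), interleukin 1 alpha (IL1A), interleukin 1 beta (IL1B) and the interleukin 1 receptor antagonist (IL1RN) were examined for GATA1 occupancy. A probe belonged to one of these 7 genes when the array annotation listed the gene with its distance to a transcription start. This rule for probes used no measured value. This gave 254 of 474411 genomic probes and 7 of 17280 annotated genes. The promoter set was split over 2 arrays that share no probe (chIP1 and chIP2). All 254 probes were on chIP1, and 253 of them passed the filters on spot quality. Distances below are in bp from the annotated start, negative upstream of it, and coordinates are those of the array, whose genome build is not given in the sources used here.

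The study sought direct targets of the transcription factor GATA1 in acute megakaryocytic leukemia. Chromatin of untreated Meg-01 cells, an established human megakaryocytic leukemia line, was precipitated with the GATA1 antibody C-20 (the IP) or with normal goat IgG, which measures non-specific recovery. Both DNA pools were amplified after linker ligation and hybridized together, with the IP in Cy5 and the IgG in Cy3. No treated, knockdown or input chromatin was hybridized, so the single comparison is IP against IgG within each array.

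Every probe was measured in 1 hybridization without a dye swap, so no test over samples was possible and no p-value is given. The value of a probe was the log2 ratio of IP to IgG signal with the median of the array at 0, and a window was the mean of 3 adjacent probes. Windows at 1 or above (2-fold toward the IP) are called IP-side and windows at -1 or below IgG-side, and the highest and lowest windows that hold a probe of a gene are its values. The only error available is that of the scanner software within 1 array, given as ± for a window and not an error between samples. Sheared chromatin averaged 500 to 1000 bp while neighboring probes of chIP1 lay at a median of 170 bp, so neighboring probes could read the same fragments.

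TNF, IL6 and IL1 are released by activated myeloid and other cells and start the acute inflammatory response through receptors that lead to NF-kB, AP-1, STAT3 and C/EBP factors. TNF, LTA and LTB belong to one ligand superfamily and lie side by side in the major histocompatibility complex, while IL1A, IL1B and IL1RN form a cluster on chromosome 2. GATA1 is the zinc finger factor of the erythroid and megakaryocytic lineages and binds DNA with the core letters GATA.

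The RefSeq promoters of TNF, IL6 and IL1B (GRCh38.p14, 250 bases before to 50 after the start) are printed because they show the letters around the start of the gene with an IP-side window at its start and of 2 genes without one. Their starts lay within 10 bp of the array's once the shift shared by neighboring genes was removed. TNF is chr6:31575315-31575614 on the plus strand, IL6 is chr7:22726950-22727249 on the plus strand and IL1B is chr2:112836730-112837029 on the minus strand. Capitals mark GATA, or TATC where it reads on the other strand.
TNF: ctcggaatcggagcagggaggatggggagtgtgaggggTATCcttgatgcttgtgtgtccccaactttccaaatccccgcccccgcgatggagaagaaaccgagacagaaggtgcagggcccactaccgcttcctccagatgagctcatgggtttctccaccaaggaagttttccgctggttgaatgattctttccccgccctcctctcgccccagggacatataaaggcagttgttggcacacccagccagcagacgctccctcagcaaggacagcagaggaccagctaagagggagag
IL6: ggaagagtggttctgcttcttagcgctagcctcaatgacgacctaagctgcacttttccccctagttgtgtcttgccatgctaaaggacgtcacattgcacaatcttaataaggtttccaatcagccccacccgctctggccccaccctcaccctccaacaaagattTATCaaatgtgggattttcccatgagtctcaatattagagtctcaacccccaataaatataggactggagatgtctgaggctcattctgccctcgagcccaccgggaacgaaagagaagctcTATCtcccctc
IL1B: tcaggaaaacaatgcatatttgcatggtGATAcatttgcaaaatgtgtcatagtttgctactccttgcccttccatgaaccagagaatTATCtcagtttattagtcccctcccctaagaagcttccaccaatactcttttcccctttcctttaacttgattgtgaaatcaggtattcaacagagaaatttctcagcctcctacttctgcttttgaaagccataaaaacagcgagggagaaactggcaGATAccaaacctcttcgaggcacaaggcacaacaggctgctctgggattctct

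The letters GATA were searched on both strands, as were the 4 longer forms with A or T before GATA and A or G after it, each of which also counts as a GATA match. Positions are counted from 0 at the start. TNF held 1 GATA match, from -212 to -209, and none of the longer forms. IL6 held 2 matches, both within longer forms, TGATAA from -84 to -79 and AGATAG from 38 to 43. IL1B held 3 matches, of which the one from -163 to -158 read AGATAA. Not printed is LTB, whose starts also matched the array's without an IP-side window there, and whose promoters held no GATA. The promoters of IL1RN held none either, while those of LTA held 0 and 1 and those of IL1A 1 and 3. Of 34796 distinct RefSeq promoters of this length, 49.8% held GATA and 25% held at least 1 of the longer forms, so the presence of either is common. TATAAA, the letters of a TATA box, stood at -29 to -24 in TNF and in 11.6% of all promoters. TGANTCA, the letters of an AP-1 site, was found in none of these 3 windows and in 7.73% of all promoters. It did occur in promoters not printed, with 2 matches in each of IL1A and 1 in the most upstream of IL1RN.

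For PCR on precipitated chromatin the study used a TNF primer pair, shown because its forward primer carries TGATAG. Neither primer matched the RefSeq promoters of TNF, LTA or LTB, and the place of the pair relative to the probes was not analysed here.
TNF forward: gcgctGATAgggaggga
TNF reverse: tctcttctcacaccccaca

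Pooled over the 7 genes, windows and probes lay toward the IP more often than those of chIP1, to a different extent in each gene. The mean over all probes ran from 0.05 in IL1RN to 0.50 in TNF, beside a median of 0.02 over the genes of chIP1. The IP-side stretches lay at different places in the genes that had them. Of the 7 genes, 6 (TNF, LTA, LTB, IL6, IL1A and IL1RN) had an IP-side window, against 59.4% of the 8296 genes of chIP1. IL6, IL1A and IL1RN also had an IgG-side window, which makes 3 of 7 genes against 55.5% of the genes of the array, and both sides were reached by 33.8% of them. These shares take no account of the number of windows, and a gene with more windows has more chances to reach 2-fold. By that number IL1RN stood at the 97.2nd percentile of the genes of chIP1, IL6 at the 96.7th, IL1A at the 77.8th and IL1B at the 70.8th. TNF, LTB and LTA stood at the 49.7th, 42.2nd and 28.1st. Neighboring genes were also counted separately, although LTA and TNF shared an IP-side window. Under another background correction, which adds an offset (normexp), none of the 7 genes kept an IgG-side window. IL1B reached neither side. With each window counted once, 32 of 235 (13.6%) were IP-side, against 7.98% of the windows of chIP1, and 9 (3.83%) were IgG-side, against 9.71%. IL6 alone supplied 11 of the 32. At 1.5-fold 7 genes were IP-side and 4 IgG-side, against 85% and 78.4% of the genes of both arrays, and at 3-fold 3 (TNF, IL6 and IL1RN) and none, against 20.6% and 22.3%.

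At the level of single probes, 152 of 253 (60.1%) lay above 0, against 50% of the array by construction, and their median was 0.20. Past 2-fold on the IP side were 44 probes (17.4%, array 12.1%) and on the IgG side 14 (5.53%, array 14.6%). The spread over the probes was like that of the array, with an SD of 0.96 against 0.97. The median highest window of the 7 genes was 1.56, beside 1.12 over the genes of chIP1, and the median lowest window was -0.75, beside -1.09.

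**Figure D1:**
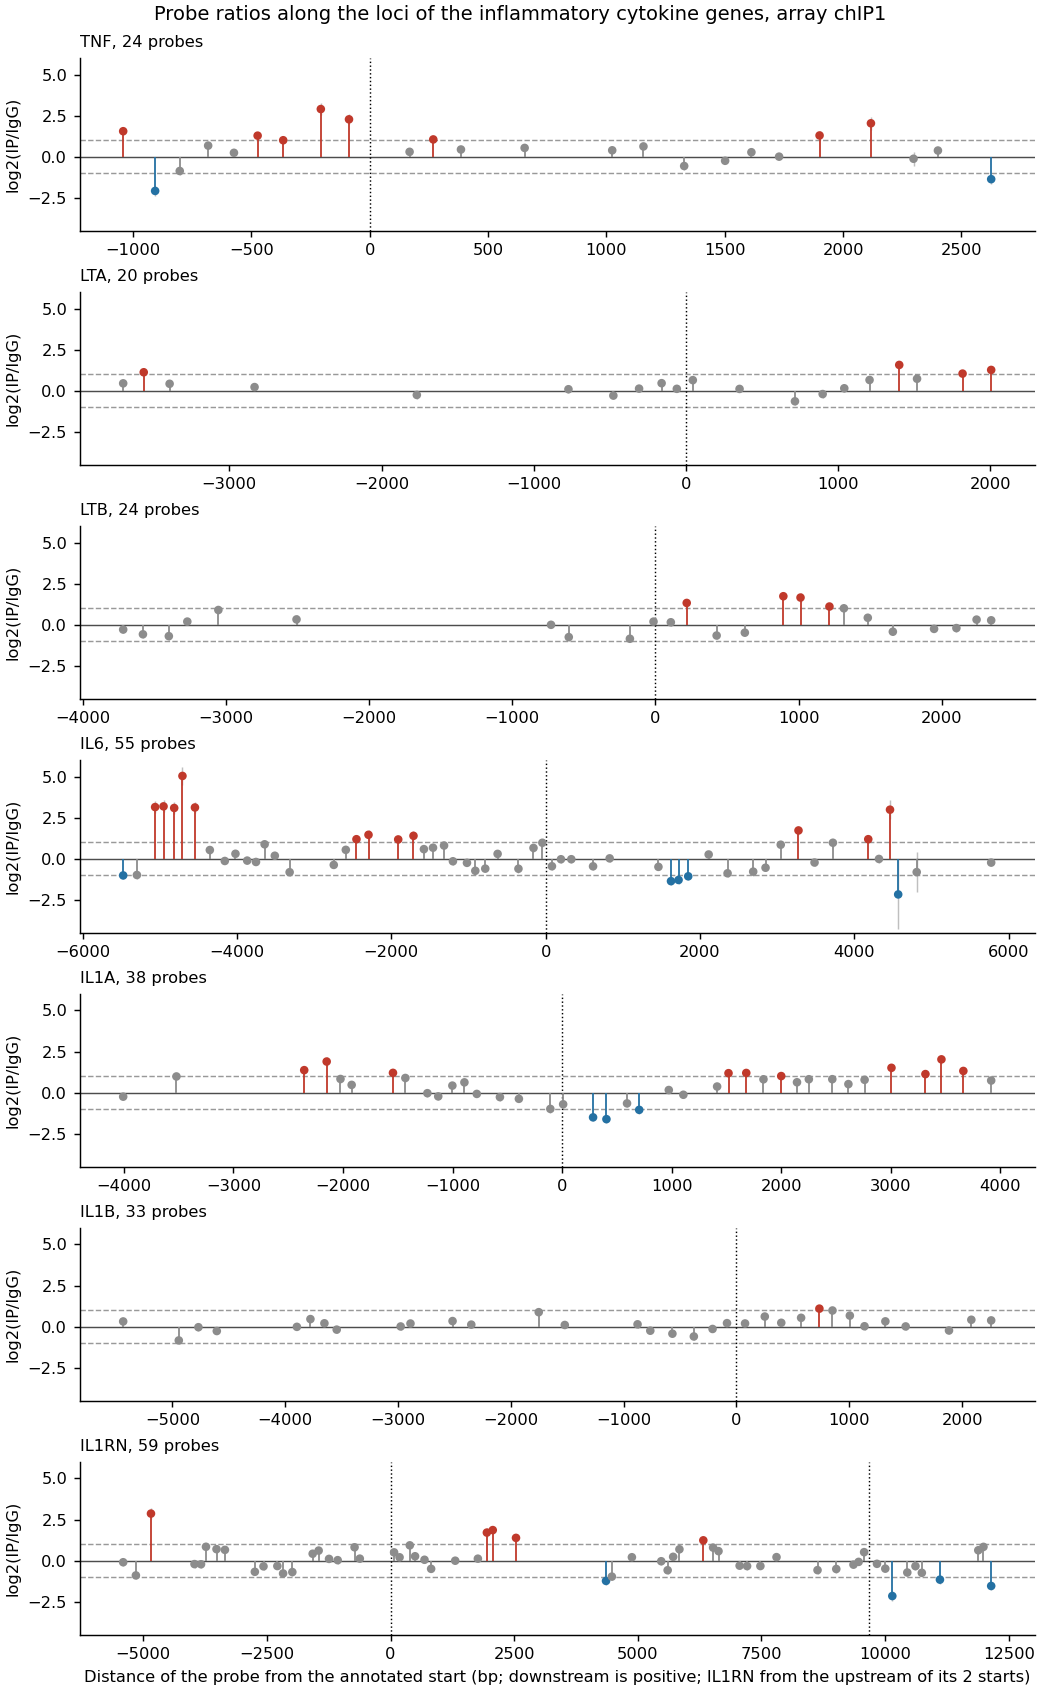
Each panel plots the log2 ratio of IP to IgG (vertical axis) of every kept probe of 1 gene against its distance in bp from the annotated start (horizontal axis, dotted line at the start, both starts for IL1RN), with red for 2-fold or more toward the IP, blue for 2-fold or more toward the IgG, dashed lines at 1 and -1 and thin gray bars for the error of the scanner software. The probes of IL6 from -5060 to -4544 stand above all others, TNF has its high probes just before the start, and IL1B stays near 0.

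The TNF family is given first, with LTA, TNF and LTB side by side on chromosome 6. TNF encodes the central ligand of acute inflammation and had its enrichment over the start. The 9 probes upstream of the TNF start read 1.55 at -1041, -2.08 at -906, -0.87 at -802, 0.68 at -682, 0.24 at -573, 1.28 at -473, 1.00 at -365, 2.90 at -206 and 2.28 at -87. The probes from -682 to 1157 were all above 0, 12 in a row with a mean of 0.98, whereas the pair at -906 and -802 lay below 0 right beside a probe at 1.55. The highest window, chr6:31650940-31651265, averaged 2.06 ± 0.17 with its center at -206, in the annotated promoter, and exceeded the highest window of 92.2% of the genes of chIP1. The single GATA match of the printed TNF promoter lay inside this window, with the start of the RefSeq table at -8 bp from the array's.

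The signals behind that window came from both channels. The TNF probe at -206 had an IP signal of 3288 and an IgG signal of 441, at the 89.8th and 24.7th percentiles of their channels. The probe at -87 had 1470 against 304, at the 69.4th and 16th percentiles. The probe at -365, the last of the window, had 705 against 352, at the 42.2nd and 19.1st percentiles. The IgG signal was low for its channel at all 3 probes, and the IP signal was above the median of its own at -206 and -87 and below it at -365.

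Inside TNF the ratios were smaller. From 169 to 1157 the probes read between 0.30 and 1.05, all above 0. Near the gene's end the probes at 1901 and 2118 gave 1.30 and 2.04, and a window of 1.11, but the second of them had an IP signal of 263 and an IgG signal of 64.2, at the 4.66th percentile of brightness. In total 7 of 24 TNF windows were IP-side and none IgG-side, 1 of them shared with LTA, and the mean over all 24 probes was 0.50, above that of 94.4% of the genes of the array.

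LTA, the secreted lymphotoxin encoded just upstream of TNF, was flat at its own start and rose toward TNF. The 5 probes from -308 to 352 lay between 0.11 and 0.65. The 6 probes from 1040 to 2005 were above 0 with a mean of 0.90, and those at 1401, 1817 and 2005 reached 1.57, 1.04 and 1.27. The highest LTA window, chr6:31649861-31650310 at 1.29 ± 0.14, took its last probe from TNF (-1041), so the LTA enrichment lay at the end of LTA and ran up to the TNF promoter. It exceeded 61.5% of the genes of chIP1. No LTA window was IgG-side, the lowest being -0.24 at 716.

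LTB anchors lymphotoxin heterotrimers at the cell surface and is transcribed from the opposite strand. Its enrichment was in the gene body, where the probes at 894, 1014 and 1216 read 1.73, 1.65 and 1.11. The window at 1014, chr6:31656943-31657314, averaged 1.5 ± 0.14, above 73.8% of the genes of the array. These were bright probes, with IP signals of 4499, 6873 and 2113 against IgG signals of 1355, 2188 and 982, and the window stood at the 89.2nd percentile of brightness.

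The start of LTB was not enriched. The probes at -178, -13, 108 and 219 read -0.85, 0.19, 0.15 and 1.33, changing sign within a short distance. The 10 upstream probes are annotated as a divergent promoter shared with LST1, a leukocyte-specific gene, and had a median of -0.15 with none past 2-fold in either direction, beside 0.13 for the divergent promoter probes of chIP1. LST1 had 21 windows, of which 3 were IP-side with a highest value of 1.40 at 479 from its own start, and none were IgG-side.

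IL6, the cytokine that drives the hepatic acute phase response and acts on megakaryocytes, held the tallest enrichment of the group, and it was far from the start. The 5 adjacent probes at -5060, -4951, -4813, -4706 and -4544 read 3.14, 3.18, 3.09, 5.03 and 3.12. The 2 probes before them were at -1.01 and -0.99 and the next one after them, at -4351, was at 0.53, so both edges of the stretch were sharp. The highest window, chr7:22535081-22535383 at -4813, averaged 3.77 ± 0.25 and ranked 3 among the 8296 genes of chIP1. No other run of 5 adjacent probes at 3 or above existed on either array, and at 2 or above there were 8 runs on chIP1 and 4 on chIP2. The run length and the limit of 3 match the IL6 stretch itself, so its standing alone is a description and not a test.

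Both channels contributed to the size of the IL6 ratios. Over the 5 probes the IP signal ran from 1062 to 2335 (57.6th to 82.9th percentile of the channel), and the IgG signal from 32.9 to 257 (0.742nd to 13th percentile). The unprocessed IgG signals of these spots were 307 to 333, against a median of 303 over the negative control spots, and the unprocessed IP signals were 574 to 879 against 342. The IP signal was thus above the controls at every one of the 5 probes while the IgG signal was close to them, which leaves the denominator of these ratios small. Under normexp the same 5 probes ran from 1.60 to 2.20 with a mean of 1.81, and the IL6 window fell to 1.87 and ranked 92.

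**Figure D2:**
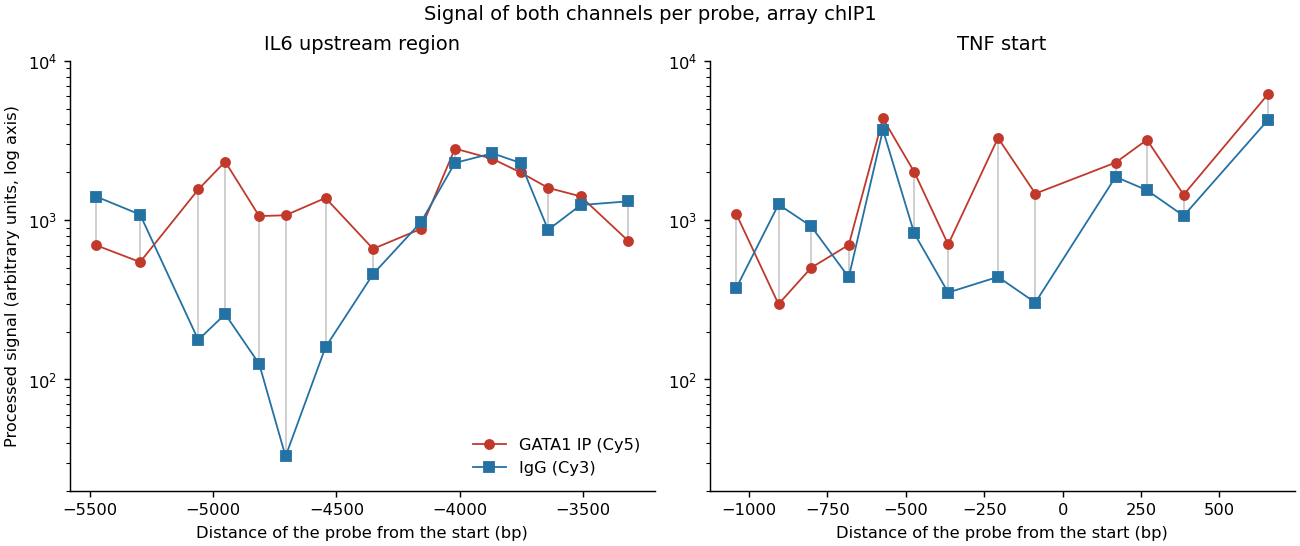
Processed signal (vertical axis, log scale) of the IP (red circles) and the IgG (blue squares) per probe against distance from the start in bp, for the IL6 upstream region (left) and the TNF start (right). At the 5 IL6 probes the IP is 1062 to 2335 and the IgG 32.9 to 257; at TNF the gap is widest at -206, 3288 against 441.

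The remaining IL6 locus was mixed. A second stretch, 8 probes from -2589 to -1316, was above 0 with a mean of 0.98, and the probes at -2451, -2295, -1910 and -1712 read 1.19, 1.46, 1.17 and 1.39. Its highest window, 1.34, was at the 9.30th percentile of brightness, with IgG signals of 104 and 87.8 at -2295 and -1712. Under normexp the mean of the stretch was 0.60 and those 2 probes read 0.24 and 0.29. At the start the ratios were below 2-fold, with 0.66 at -157, 0.97 at -42 and -0.46 at 82. The windows centered at -157 and -42 were dim, at the 14.5th and 26th percentiles of brightness. The printed IL6 promoter carried TGATAA and AGATAG around this start, and a link between these letters and the ratios was not tested.

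The body of IL6 was mixed as well, with 3 of 21 inside probes past 2-fold toward the IP and 4 toward the IgG. Of the 111681 inside probes of chIP1, 13464 and 14192 did so, and the few IL6 probes do not set its body apart. The probes at 3047, 3277, 3485, 3723 and 4181 read 0.85, 1.72, -0.23, 0.97 and 1.19. The windows centered on them stayed below 2-fold, the highest being 0.82 at the 18th percentile of brightness. The probes at 1625, 1723 and 1848 read -1.36, -1.29 and -1.07 and made the lowest window, -1.24 ± 0.14 (chr7:22541656-22541937), and -0.92 under normexp. The last IP-side and IgG-side windows, centered at 4320 (1.39) and 4809 (-1.07), rested on very dim probes, including 1 with a surrogate IgG value (2.98 at 4463) and 1 with a surrogate IP value (-2.17 at 4569, software error 2.09). IL6 had 11 IP-side and 3 IgG-side windows among 53, more windows than 96.7% of the genes of the array, and a mean over its 55 probes of 0.37 with an SD of 1.36. The median of the 55 probes was -0.01, and 27 of them lay above 0.

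IL1A, an alarmin kept inside cells and on their surface until damage, showed a dip around the start annotated on the array, between 2 enriched flanks. The 9 probes from -779 to 703 were all below 0 with a mean of -0.80, and those at 282, 404 and 703 read -1.50, -1.61 and -1.04. The lowest window, chr2:113258769-113259223, averaged -1.27 ± 0.14 at 282. The IgG signals of those 3 probes were 3370, 2551 and 4007 and their IP signals 1192, 837 and 1944. Elsewhere in the dip the probes at -568 and -108 were dimmer, with IP signals of 666 and 636. Under normexp the window was -0.92, below 2-fold.

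On both sides of the dip the IL1A ratios turned. The 7 probes from -3520 to -1431 were above 0 with a mean of 1.10, led by 1.37 at -2354 and 1.90 at -2149. The 15 probes from 1414 to 3915 in the gene body were above 0 without exception, with a mean of 1.00, an SD of 0.42 and a highest value of 2.03 at 3461. The highest window, chr2:113255716-113256220 at 3315, averaged 1.56 ± 0.15 and exceeded 76.8% of the genes of chIP1. IL1A had 8 IP-side and 4 IgG-side windows among 34, and its mean over all probes, 0.42, was above 90.9% of the genes. The RefSeq starts of IL1A lay at -986 and -893 bp from the array's in genome coordinates after the shift. IL1A is on the minus strand, so these starts lie downstream of the array's start, beyond the dip. The dip is thus placed by the array's start alone and the promoter is not printed.

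IL1B, the inflammasome product and main circulating IL-1, gave the flattest and brightest profile. Its 33 probes ranged from -0.83 to 1.10 with an SD of 0.42, and their median brightness was at the 80.3rd percentile of the array. The probes around the start read -0.59 at -378, -0.14 at -212, 0.22 at -84, 0.20 at 76 and 0.62 at 251, with IP signals of 2410, 2791, 2747, 5913 and 8846. The highest window, chr2:113309558-113309880 at 851, was 0.92 ± 0.13, above 34.5% of the genes, and the lowest was -0.42. Of the 33 probes 1 passed 2-fold, at 735 with 1.10. The 3 GATA matches of the printed IL1B promoter lay among or under the probes from -212 to 76, which stayed between -0.14 and 0.22.

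IL1RN, the antagonist that blocks the IL-1 receptor, is annotated on the array with 2 starts, and distances here are from the upstream one, with those from the downstream one named as such. Its enrichment lay inside the long transcript, where the probes at 1948, 2067 and 2537 read 1.71, 1.86 and 1.39. The window at 2067, chr2:113593624-113594267, averaged 1.65 ± 0.15 and exceeded 81.0% of the genes of chIP1. The probe with the highest ratio of IL1RN, 2.87 at -4843, stood alone beside -0.89 and -0.21 and had an IgG signal of 169.

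Around the 2 IL1RN starts the ratios differed. The 11 probes from -1574 to 687 around the upstream start were above 0 with a mean of 0.37 and a highest value of 0.94. The 7 probes from 167 to 1440 beyond the downstream start were below 0 with a mean of -0.82, and the one at 477 read -2.15 on an IgG signal of 3167. The lowest window, chr2:113601674-113602178, was -1.12 ± 0.14, and -0.78 under normexp. IL1RN had 2 IP-side and 2 IgG-side windows among 55, and its mean over 59 probes, 0.05, was near that of the array.

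**Figure D3:**
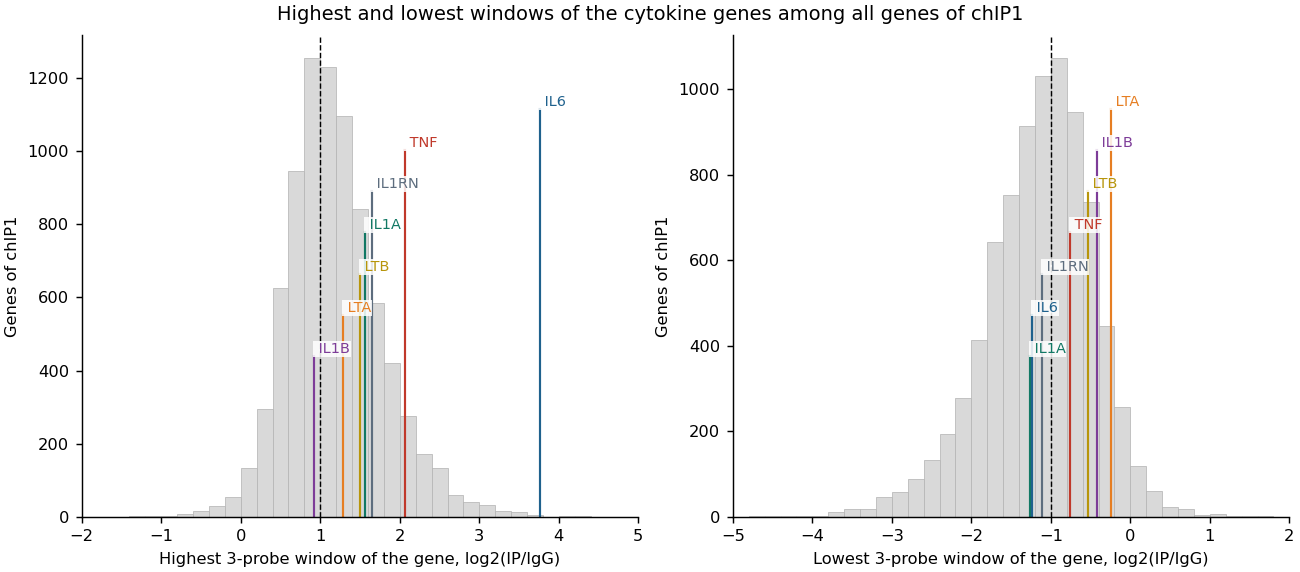
Gray bars count the genes of chIP1 by their highest (left) and lowest (right) 3-probe window in log2(IP/IgG), with a dashed line at 2-fold and colored lines at the values of the 7 cytokine genes (line height has no meaning). IL6 at 3.77 stands at the far right of the left panel and TNF at 2.06 in the upper tail, while the 5 others lie between 0.92 and 1.65.

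The enriched windows were then counted by distance from the start, with no test against the profile of the array. On chIP1 the share of IP-side windows was highest near starts, 11.7% from -500 to 0 and 10.7% from 0 to 500, against 6.61% from -6000 to -4000. Of the cytokine windows 3 of 21 from -500 to 0 were IP-side, all of TNF, and 1 of 20 from 0 to 500, again of TNF, with 4 IgG-side windows of IL1A and IL1RN in the latter step, where the array had 3.76%. From -1000 to -500 none of 18 was IP-side and from 500 to 1000 none of 15, against 8.40% and 9.13% of the array. From 1000 to 2000 there were 7 IP-side windows of 35, from IL1A, LTA, LTB and TNF, and from 2000 to 4000 there were 6 of 26, from IL1A, LTA and TNF, against 7.11% and 6.48% of the array. From -4000 to -2000 there were 4 of 43 (array 6.38%), and from -2000 to -1000 there were 2 of 22 (array 7.01%). From -6000 to -4000 there were 6 of 18, all of the 1 stretch upstream of IL6. These steps use the first distance that the annotation lists for a probe, which for IL1RN is from either start.

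By annotation, the 136 promoter probes of the genes had a median of 0.20 (array -0.05) and the 101 probes inside genes 0.30 (array 0.04). Between genes the contrast ran in both directions. In TNF the promoter was higher, with a median of 1.00 against 0.38 inside, and in IL6 likewise with 0.54 against -0.23. In LTB the inside was higher, 0.71 against -0.15 in the divergent promoter, and in LTA 0.65 against 0.18. IL1RN was low inside, at -0.60 beyond its downstream start. These labels are the array's, so the promoter probes include the IL1RN probes between its starts, which lie inside the long transcript.

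Brightness moved with the size of the ratios, on the array and in these genes, and its part in the single values was not tested. On chIP1 the SD of the ratios fell from 1.30 in the dimmest quartile of probes to 0.66 in the brightest. In the same quartiles the cytokine probes had SDs of 1.65 (n = 23) and 0.66 (n = 87). The dimmest quartile held 8 of 23 probes at 2-fold or more toward the IP (array 18.1%), among them 2 of the 5 IL6 probes upstream. The brightest held 7 of 87 (array 8.72%), among them those of LTB at 894 and 1014. No probe of these genes was saturated, and the scanner software marked 251 of 253 as well above background in both channels, the 5 IL6 probes upstream included.

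**Figure D4:**
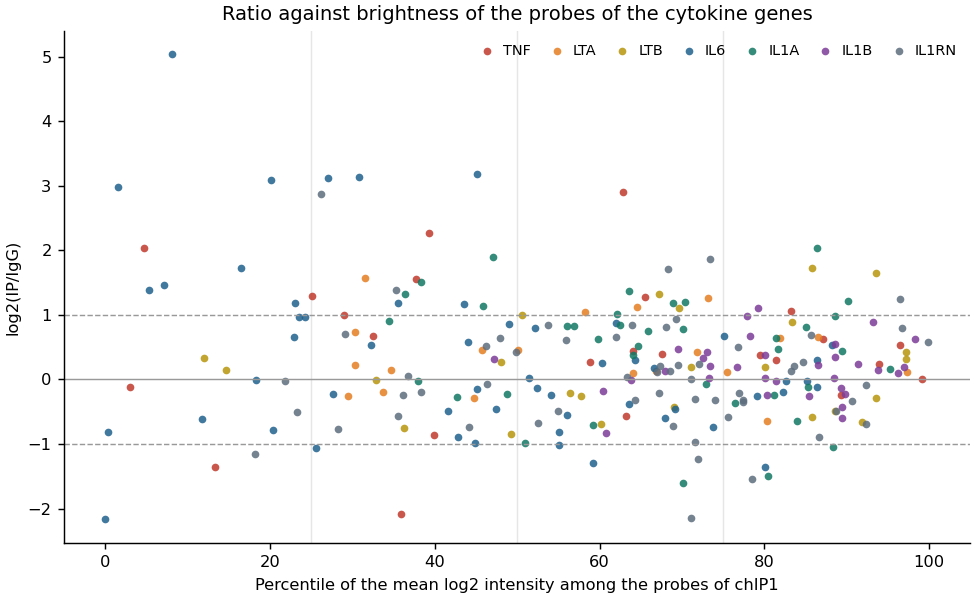
Log2 ratio of IP to IgG (vertical axis) of every probe of the 7 genes (colors) against the percentile of its mean log2 intensity among the probes of chIP1 (horizontal axis), with dashed lines at 2-fold and gray lines between quartiles. The spread narrows to the right, from an SD of 1.65 to 0.66, the highest IL6 probe lies at the 8.12th percentile, and the purple IL1B probes crowd the bright end.

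The genes through which these cytokines signal were then examined as a list of 27 in 5 roles, all of which had windows. Of them 16 had an IP-side window and 16 an IgG-side window, against 57.1% and 52.9% of the 17054 genes of both arrays, so that the list had shares near those of all genes. The median highest window of the list was 1.05 and the median lowest -1.11. Counts by role were 4 of 8 receptors, 5 of 8 adaptors and kinases, 4 of 6 transcription factors, 2 of 3 feedback inhibitors and 1 of 2 processing enzymes with an IP-side window.

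Both TNF receptors were on the IP side. TNFRSF1A, the widely expressed death domain receptor, reached 1.78 at -3916 with 4 IP-side windows, and TNFRSF1B, the receptor of leukocytes, reached 1.82 at -2082 with 9, and neither had an IgG-side window. LTBR, which binds the lymphotoxin heterotrimer, reached 0.71, with a lowest window of -1.01. Of the IL-6 receptor chains, the ligand-binding IL6R reached 1.54 at -3246, while the signal transducer IL6ST had only 2 windows, both far inside the gene, at -0.31 and -1.13. Of the IL-1 receptors, IL1R1 reached 1.70 at -4732 and -1.21 at -3276, the decoy receptor IL1R2 stayed at or below 0.20 and fell to -1.11, and the coreceptor IL1RAP spanned 0.59 to -1.13.

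In the other roles the named genes are those with the highest and the lowest window. CASP1, the protease that matures IL1B, held both among the processing enzymes, with 1.23 and -1.07. Among adaptors and kinases RIPK1, the kinase of the TNF receptor complex, was highest with 1.55, and IRAK4, the first kinase downstream of the IL-1 receptor, was lowest with -2.15 and 6 IgG-side windows. NFKB1, the p105/p50 subunit of NF-kB, held the extremes of the transcription factors, 2.22 at -4487 and -1.40 at 1912. NFKBIA, the inhibitor that NF-kB induces, did so among the feedback inhibitors, with 1.57 at -3902 and -1.84 at -1380. These genes lie partly on chIP2, which was normalized on its own.

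**Figure D5:**
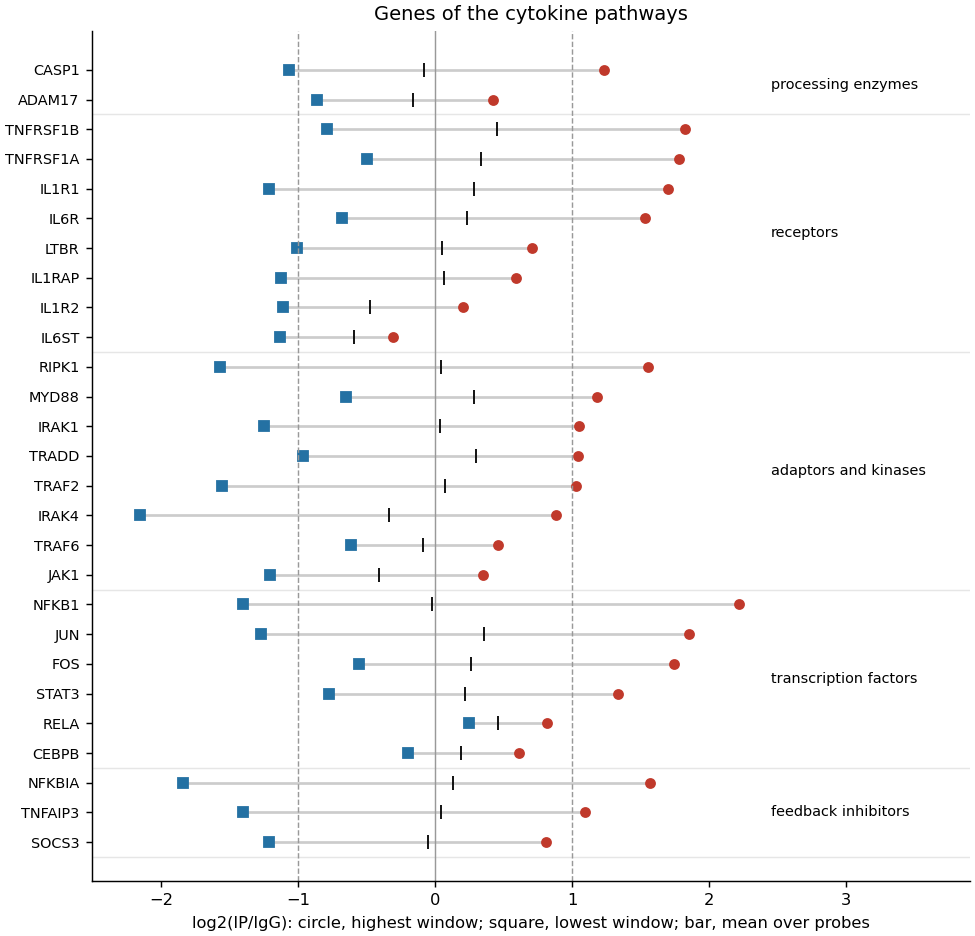
Highest (red circles) and lowest (blue squares) 3-probe windows and the mean over all probes (black bars) of 27 genes of the cytokine pathways, in log2(IP/IgG) on the horizontal axis, grouped by role, with dashed lines at 2-fold. Past 1 are 16 genes and past -1 are 16, not all of them the same, and NFKB1 has the highest window at 2.22 and IRAK4 the lowest at -2.15.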

How the data were processed

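The deposited intensity values are scanner output, made with Agilent Feature Extraction 9.5.3.1 with its ChIP protocol, which subtracted a spatial surface, detrended and dye-normalized the processed intensities linearly, set surrogate values near background and subtracted no local background. The deposited log10 ratio error is the software's within 1 array, and the deposited value table holds the log10 ratios of Cy5 over Cy3. The study's own lowess normalization and peak calling were not used here.

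Here log2 of the processed Cy5 over Cy3 intensity was centered on the median of each array. Spots of the array's own controls or of uneven signal were dropped, as were probes that exceeded background in no channel. Of 237210 and 237201 genomic probes, 237004 and 236864 were kept, and they made 208775 and 206628 windows of 3 adjacent probes, whose outer probes lay at most 1000 bp from the middle one. The software errors of 3 probes were combined as independent, divided by 3. Gene percentiles are among genes of chIP1. Scripts used Python 3.11.15, numpy 2.4.6, pandas 2.3.3, R 4.3.3 and limma 3.58.1, and the code for window calling was tested on simulated data. The simulated noise was independent between probes and smaller than the spread of the arrays. That test thus checks the code and not how reliable the calls are in these data.

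The genes, the pathway list and the rules for naming genes (the 7 genes, genes that share their probes, all receptors, and the highest and lowest gene of each other role) were chosen with earlier results of these data known. With 1 hybridization per probe, precision is limited by the number of arrays. The 10 alternatives changed 1 choice each: loess (span 0.3), normexp (offset 50), the deposited value table, no filter on dim probes, both channels above background, single probes, 5-probe windows, removal of the distance trend in steps of 500 bp out to 6000 bp, and thresholds of 1.5-fold and 3-fold.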

Additional observations from a re-analysis of the deposited data

How the results depend on the processing

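Of 56 highest windows of the 7 genes under 8 alternatives, 55 stayed on their side of 2-fold, and 51 of 56 lowest windows did. The exceptions were IL1B, which reached 1.10 as a single probe, TNF with -2.08 as a single probe, the lowest windows of IL6 (-0.92), IL1A (-0.92) and IL1RN (-0.78) under normexp, and that of IL6 (-0.87) in 5-probe windows. No called value changed sign. The deposited value table and both changes to the filter on dim probes barely moved the highest windows, with TNF at 2.06 in each. Agreement under those alternatives was therefore nearly given in advance and adds little to the counts. Normexp left the IP-side genes at 6 of 7 and took the IgG-side genes and windows to 0, the IP-side and IgG-side pathway genes to 10 and 4, and the median highest window to 1.39. Over all genes it lowered the shares on the IP and IgG side to 33.1% and 23.9%. With single probes there were 14 IgG-side values, 25 of 27 pathway genes on the IP side (all genes 86.1%) and a median highest value of 2.03. With 5-probe windows these were 4, 8 (all genes 34.1%) and 1.23, and 5 pathway genes were IgG-side (all genes 33.5%). At 1.5-fold there were 71 IP-side and 19 IgG-side windows. At 3-fold 9 IP-side windows in 3 genes remained and no IgG-side window or gene, with 6 and 2 pathway genes (all genes 20.6% and 22.3%). Shares over all windows of the array are not given for 5-probe windows or for these 2 thresholds. Those window counts therefore have no background beside them and show only how the settings moved them. Over these alternatives the rank of the highest IL6 window ran from 1 to 92 and the percentile of that of TNF from 84.7 to 93.9. Apart from what follows from the construction of the alternatives, the cause of these changes was not tested. No paired analysis was possible because the sole samples are 2 arrays that share no probe. The IgG signal of the 5 high IL6 probes was near the negative controls, which limits how well those ratios are known.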
